A study of Mus musculus with 18 samples.

Results

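The interferon-inducible GTPases described here are 10 mouse genes, chosen by name from the 55416 genes of the count table: the guanylate-binding proteins Gbp2, Gbp3, Gbp5, Gbp7 and Gbp9, and the immunity-related GTPases Irgm1, Irgm2, Igtp, Iigp1 and Ifi47. All 10 passed the filter on low counts. They were measured by RNA sequencing of spleen monocytes on day 3 after treatment with IVIg, the intravenous preparation of donor-pooled IgG, or with phosphate-buffered saline (PBS). Wild type (WT, C57BL/6), Dectin-1 knockout and FcgRIIb knockout mice each received PBS or IVIg, which gave 6 groups of 3 mice, with no age, dose or knockout construct in the labels. Clec7a encodes Dectin-1, a receptor for fungal beta-glucans, and Fcgr2b encodes FcgRIIb, the Fc gamma receptor that inhibits. The comparisons ask how IVIg and the loss of either receptor bear on the level of each GTPase transcript.

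These GTPases are made in large amounts by macrophages and monocytes that have met interferon gamma, and many also respond to type I interferons. Signals from the receptor for interferon gamma reach GAS elements in promoters, and IRF factors act at interferon-stimulated response elements (ISRE). Guanylate-binding proteins gather on the vacuoles of intracellular parasites and on bacteria, disrupt their membranes and promote inflammasome activation. Among the immunity-related GTPases, Irgm1, Irgm2 and Igtp (also called Irgm3) are regulators that stay on the cell's own membranes and keep the effectors inactive there, whereas Iigp1 (Irga6) and Ifi47 (Irgd) are effectors that load onto parasite vacuoles.

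Promoters of 8 members are in the RefSeq table (GRCm38.p6), which gives 250 bases before and 50 after each start, and Gbp9 and Iigp1 have no entry there. The windows below run from 110 bases before the start to 10 bases from it and are shown for Gbp2 and Gbp3, which had the smallest unadjusted p of the members between genotypes after IVIg, for Gbp7, whose level varied most among the well counted members, and for Irgm1, Igtp and Irgm2, which varied little. Capitals mark letters that match GAS (TTCNNNGAA, the same on both strands) or the core of ISRE (GAAANNGAAA, or TTTCNNTTTC where it lies on the other strand), and neighbouring ISRE matches share letters in Gbp3 and Irgm1.
Gbp2, chr3:142620553-142620672, plus strand: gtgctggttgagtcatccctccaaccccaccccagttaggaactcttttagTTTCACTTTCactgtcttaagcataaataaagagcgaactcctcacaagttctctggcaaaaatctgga
Gbp3, chr3:142559934-142560053, plus strand: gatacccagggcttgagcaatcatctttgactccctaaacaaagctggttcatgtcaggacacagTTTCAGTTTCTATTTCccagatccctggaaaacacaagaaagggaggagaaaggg
Gbp7, chr3:142530226-142530345, plus strand: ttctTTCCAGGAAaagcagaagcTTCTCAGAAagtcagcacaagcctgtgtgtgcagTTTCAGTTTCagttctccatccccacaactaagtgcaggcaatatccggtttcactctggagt
Irgm1, chr11:48871411-48871530, minus strand: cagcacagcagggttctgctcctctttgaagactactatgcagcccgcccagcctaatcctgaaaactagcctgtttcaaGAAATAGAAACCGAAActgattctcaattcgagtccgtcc
Igtp, chr11:58199446-58199565, plus strand: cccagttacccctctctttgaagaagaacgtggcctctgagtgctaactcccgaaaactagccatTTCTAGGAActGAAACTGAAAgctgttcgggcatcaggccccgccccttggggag
Irgm2, chr11:58214867-58214986, plus strand: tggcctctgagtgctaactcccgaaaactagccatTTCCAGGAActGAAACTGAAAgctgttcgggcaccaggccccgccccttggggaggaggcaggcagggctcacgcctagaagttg

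The table holds 9 promoters of the 8 members, since Gbp3 has another annotated start, whose promoter holds neither motif. The ISRE core was found in 7 of the 9 promoters, those of 7 of the 8 members, all but Ifi47, and GAS in 4 of 9, namely those of Gbp5, Gbp7, Igtp and Irgm2, each of which held both. Of all 32851 promoters of this length in the table, 3.44% held the ISRE core, 8.30% held GAS and 0.454% held both. The matches of Gbp2 and Gbp3 are ISRE cores within 59 bases before the start, and Gbp7 has a pair of GAS matches 106 and 87 bases before it. The promoters of Igtp and Irgm2 align without gaps at an offset of 30 bases and share 184 of 270 bases, 68.1%. For Gbp7, Irgm2 and the other start of Gbp3, the first bases after the start were not found in annotated (GENCODE) transcripts of the gene. These starts may differ from those of the counted gene models. A match is a description of these letters and shows no binding.

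The loci lie in a few clusters. On GRCm39, the build of the counts, chromosome 3 holds Gbp5 (ENSMUSG00000105504, 142199739 to 142228105), Gbp7 (ENSMUSG00000040253, 142236103 to 142255910), Gbp3 (ENSMUSG00000028268, 142265787 to 142278970) and Gbp2 (ENSMUSG00000028270, 142326363 to 142343769), all on the plus strand. Gbp9 (ENSMUSG00000029298) lies on the minus strand of chromosome 5, 105225496 to 105287405. Chromosome 11 holds Irgm1 (ENSMUSG00000046879, minus strand, 48752795 to 48762510), Ifi47 (ENSMUSG00000078920, plus strand, 48967414 to 48987801), Igtp (ENSMUSG00000078853, plus strand, 58090382 to 58098417) and Irgm2 (ENSMUSG00000069874, plus strand, 58090444 to 58113608). Iigp1 (ENSMUSG00000054072) is on the plus strand of chromosome 18, 60509099 to 60525706.

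The libraries were uneven in depth. Total counts lay between 16996494 and 48958909 in 17 libraries, while FcgRIIb knockout PBS replicate 2 held 719494, so that 3 counts correspond to 4.24 CPM (counts scaled to library size) there and to 0.0615 to 0.186 CPM elsewhere. The 10 members took 0.0667% to 0.0983% of the counts of a library. The summed CPM of 10 monocyte markers lay between 21491 and 43301. Sums ran from 11.3 to 67.8 for 10 T cell markers. For 7 NK cell markers they ran from 5.65, in the shallow library, to 55.2. They ran from 227 to 1488 for 7 B cell markers and from 3.47 to 1258 for 8 neutrophil markers. Clec7a stood at 0.247 to 4.05 CPM in the Dectin-1 knockout and 360 to 821 CPM in WT. Counted over the whole gene, Fcgr2b ranged from 130 to 250 CPM where it was targeted and from 208 to 318 CPM in WT, so its ranges overlapped. WT PBS replicate 3 and WT IVIg replicate 1 had the most alike profiles of 153 library pairs (Spearman 0.988), though they received different treatments. In a bulk sample fewer cells of a type and less RNA per cell cannot be told apart.

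Per transcript length, Ifi47 was the most abundant member. Over the 17 deep libraries it averaged 66.6 FPKM (CPM per kilobase of exon; SD 16.04), followed by Gbp2 at 38.5 (SD 9.68), Gbp3 at 30.7 (SD 7.30), Igtp at 28.9 (SD 5.59), Irgm1 at 26.5 (SD 3.41) and Irgm2 at 26.3 FPKM (SD 2.80). Gbp9 averaged 11.5 FPKM (SD 2.54), Gbp5 4.29 (SD 1.14), Gbp7 3.70 (SD 2.47) and Iigp1 0.210 FPKM (SD 0.140). The ranges of neighbours in this order were separate only between Irgm2 and Gbp9 and between Gbp7 and Iigp1. Ifi47 nevertheless exceeded Gbp2 within each of the 17 libraries, while Irgm1 exceeded Irgm2 in 6 of 17. The regulators and Ifi47 were well expressed in each group, PBS controls included, and the effector Iigp1 was barely detected, with 0 counts in the shallow library and in FcgRIIb knockout IVIg replicate 1, where 3 counts would be 0.148 CPM.

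**Figure D1:**
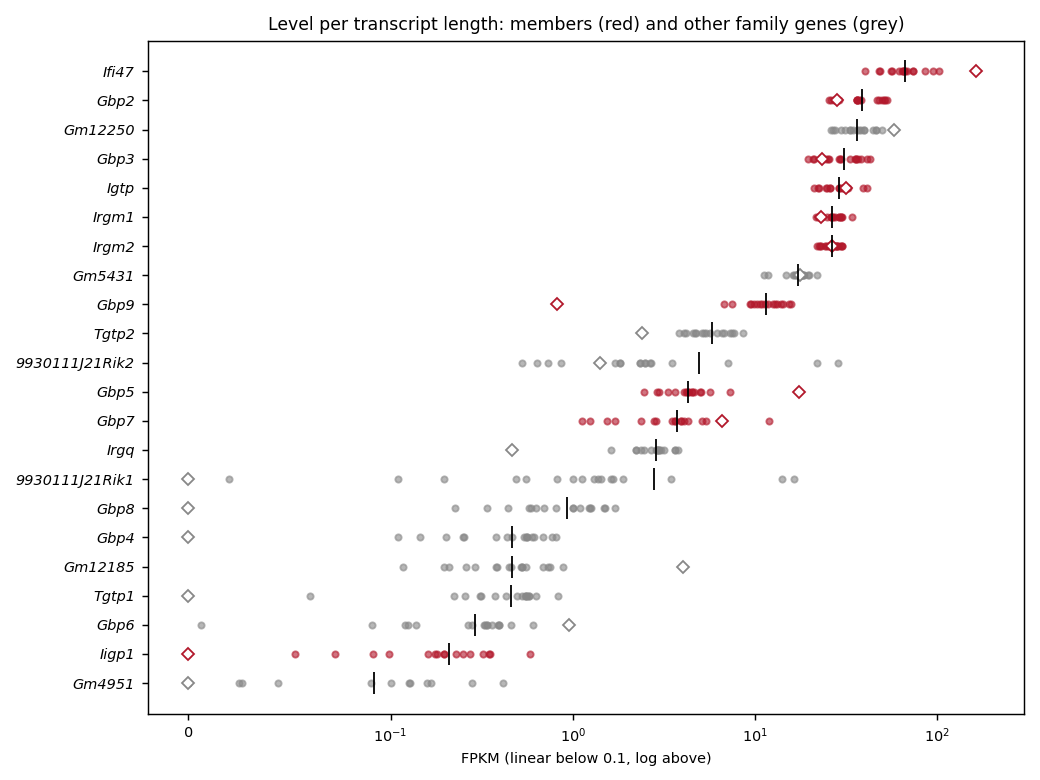
Level per transcript length in FPKM (x axis, linear below 0.1 and logarithmic above) of the 10 members (red) and the 12 other tested genes of the same families (grey), 1 row per gene; circles are the 17 deep libraries, diamonds FcgRIIb knockout PBS replicate 2 and bars the mean over the deep libraries. Ifi47 lies at the top with a mean of 66.6 FPKM and Iigp1 near the bottom with 0.210 FPKM.

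The members differed in how steady they were. The coefficient of variation of CPM over the 17 deep libraries was lowest for the regulators Irgm2 (10.6%), Irgm1 (12.9%) and Igtp (19.4%). It was 22.1% for Gbp9, 23.7% for Gbp3, 24.1% for Ifi47, 25.1% for Gbp2 and 26.5% for Gbp5. It reached 66.6% for Iigp1 and 66.7% for Gbp7. The median over the 8666 tested genes of at least 10 CPM was 20.4%, and the 3 regulators lay below it. Gbp7 ranged from 6.33 CPM in WT IVIg replicate 2 to 66.9 CPM in WT PBS replicate 3.

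**Figure D2:**
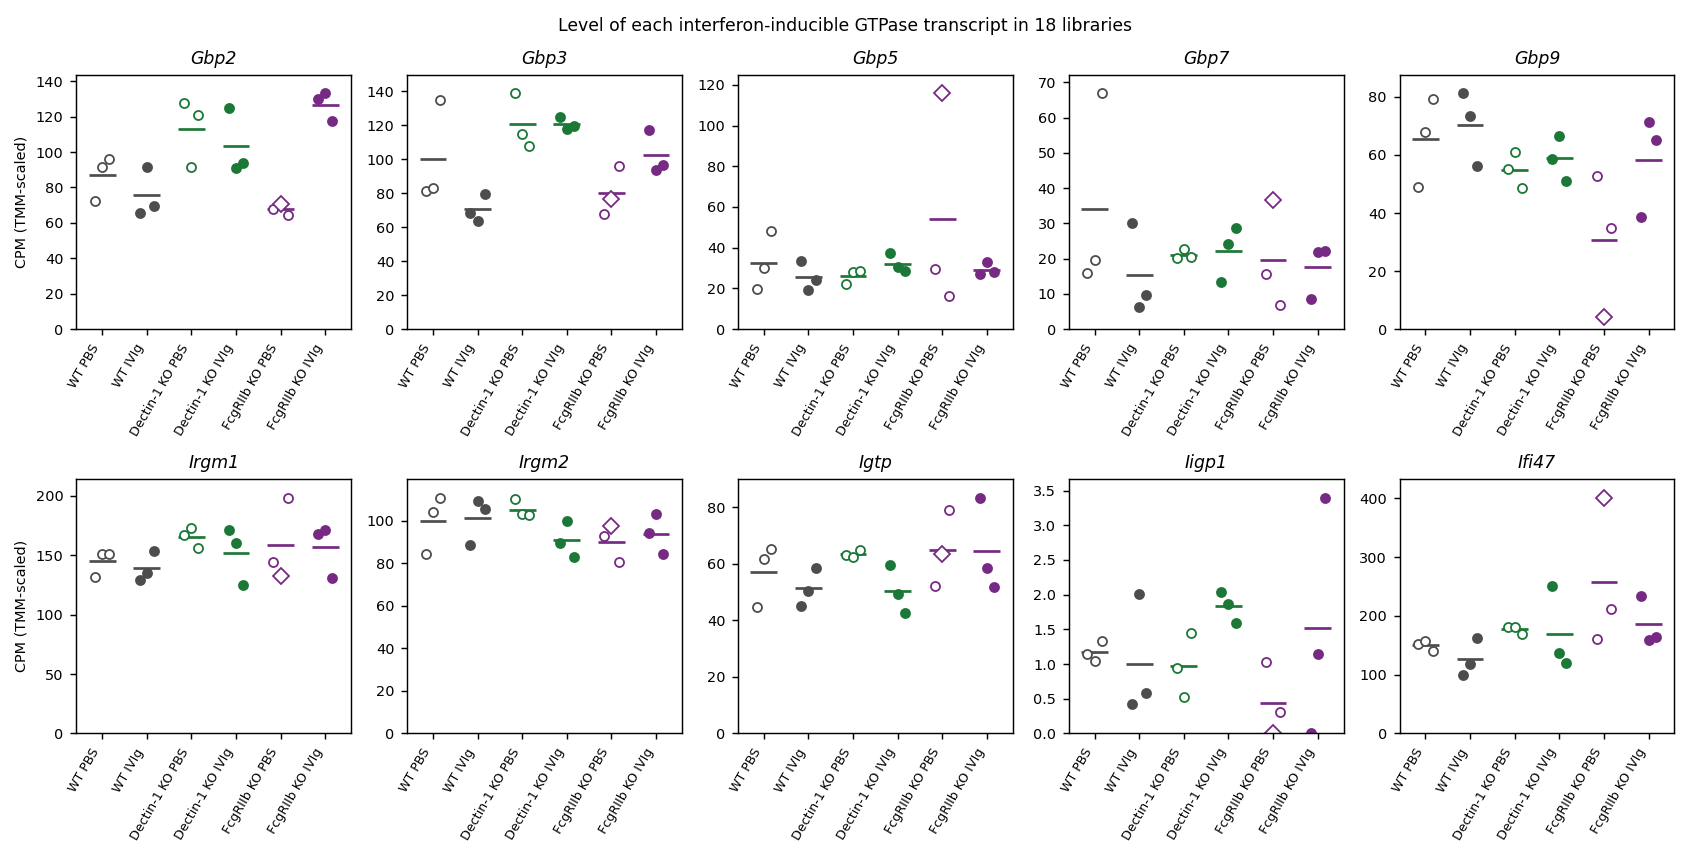
CPM on TMM-scaled library sizes (y axis, linear from 0) of each member in the 6 groups (x axis); open symbols are PBS, filled symbols IVIg, horizontal bars the mean of 3 libraries and the diamond the shallow FcgRIIb knockout PBS replicate 2. Gbp2 stands at 64.2 to 70.6 CPM in the FcgRIIb knockout with PBS and at 117.3 to 133.1 CPM with IVIg, while Irgm2 stays between 80.5 and 110.9 CPM in all groups.

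No member passed the test for IVIg against PBS in any genotype, and the estimates of the members lay on both sides of 0 in each. In edgeR's quasi-likelihood test, taking as called a gene whose adjusted p (Benjamini-Hochberg) was below 0.05, 0 of the 10 members were called in WT, in the Dectin-1 knockout, in the FcgRIIb knockout or in the average of the 3 genotypes. Of the 17040 tested genes, 0.00587% were called in WT, which is 1 gene, and 0% in the knockouts and in the average. DESeq2 and limma voom also called 0 members in each of these comparisons. At an unadjusted p under 0.05 edgeR counted 2 of 10 members in WT, 0 in the Dectin-1 knockout, 1 in the FcgRIIb knockout and 0 in the average, beside 2.52%, 3.26%, 3.19% and 2.31% of all tested genes. The median log2 fold change of the members was -0.19 in WT, -0.03 in the Dectin-1 knockout, 0.21 in the FcgRIIb knockout and -0.05 in the average, beside 0.01, 0.02, 0.01 and 0.02 over all tested genes.

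The largest difference with IVIg in relation to its error was that of Gbp2 in the FcgRIIb knockout. Gbp2, which binds parasite vacuoles and oligomerizes there, stood at 68.1, 70.6 and 64.2 CPM in the 3 PBS libraries and at 129.8, 133.1 and 117.3 CPM in the 3 IVIg libraries. Each IVIg library exceeded each PBS library, the shallow one included. The log2 fold change was 0.92 ± 0.22 (SE; 95% confidence interval 0.47 to 1.38), a ratio of 1.90, with an unadjusted p of 0.000405 and an adjusted p of 1 in edgeR. In WT the Gbp2 values were 72.5, 91.6 and 96.2 CPM with PBS and 65.8, 91.5 and 69.3 with IVIg, and in the Dectin-1 knockout 127.5, 91.3 and 120.8 with PBS and 125.1, 90.9 and 93.6 with IVIg. These groups overlapped, at log2 fold changes of -0.20 ± 0.20 in WT and -0.14 ± 0.20 in the Dectin-1 knockout. The change of Gbp2 with IVIg was 1.13 ± 0.29 larger on the log2 scale in the FcgRIIb knockout than in WT (95% interval 0.51 to 1.74), with an unadjusted p of 0.00108 and an adjusted p of 1 for this interaction in edgeR. Gbp2 was the only member that did not overlap between IVIg and PBS in the FcgRIIb knockout, a comparison in which 7.04% of all tested genes did not overlap. In the same comparison the summed T cell markers lay at 26.1 to 45.2 CPM with PBS and 37.7 to 67.8 with IVIg, and the NK cell markers at 5.65 to 33.3 and 34.0 to 55.2 CPM. Also higher with IVIg there were 8 of 8 neutrophil markers (median log2 fold change 1.57; sums of 18.1 to 62.7 CPM with PBS against 17.2 to 123.9), 5 of 5 erythroid markers (median 1.60; 11.6 to 25.4 against 15.8 to 47.8 CPM) and 11 of 12 markers of non-classical monocytes (median 0.48; 4149 to 6310 against 6023 to 7135 CPM), with 0 called. Of the 10 classical monocyte markers 9 were lower with IVIg (median -0.29, 0 called). The 10 summed to 10439 to 12503 CPM with PBS and to 8668 to 10473 CPM with IVIg. Several ends of these PBS ranges belonged to the shallow library. They are 45.2 (T cell), 5.65 (NK cell), 25.4 (erythroid), 4149 (non-classical monocyte) and 10439 CPM (classical monocyte). The other PBS libraries had NK cell sums of 29.4 and 33.3 CPM. The part of all these markers in the Gbp2 values was not tested.

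Gbp3, a close relative of Gbp2 from the same cluster, showed lower values with IVIg in WT. It stood at 81.5, 83.04 and 134.8 CPM with PBS and at 68.4, 63.6 and 79.5 with IVIg, so that the groups did not overlap. WT PBS replicate 3 was the highest by a wide margin. The log2 fold change was -0.50 ± 0.21 (unadjusted p = 0.0288, adjusted p = 1 in edgeR), and it was -0.22 without that library. Gbp3 was the only member whose WT groups did not overlap, beside 6.33% of all tested genes. In the FcgRIIb knockout the PBS values of Gbp3 were 67.9, 76.2 and 95.7 CPM and its IVIg values 117.4, 93.6 and 96.4 CPM, a log2 fold change of 0.34 ± 0.23, and in the Dectin-1 knockout its means were 120.5 ± 16.1 and 120.7 ± 3.88 CPM (SD, n = 3). The interaction of the FcgRIIb knockout with IVIg was 0.84 ± 0.31 for Gbp3 (unadjusted p = 0.0141, adjusted p = 1 in edgeR), and 0.56 without WT PBS replicate 3. In the WT comparison the 12 markers of non-classical monocytes were all higher with IVIg (median log2 fold change 0.87, 0 called). Their summed levels were 5266 to 7010 CPM in PBS and 7825 to 9891 CPM in IVIg. Of the 10 classical monocyte markers 9 were lower with IVIg (median -0.35, sums of 11006 to 19483 CPM in PBS against 6305 to 11175). T cell markers were lower for 9 of 10 (median -0.64) and erythroid markers higher for 5 of 5 (median 1.04), with 0 called. The part of these markers in the Gbp3 values was not tested.

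Gbp7, which has been linked to the assembly of the phagocyte oxidase on vacuoles, depended on WT libraries that stood apart. It stood at 16.01, 19.5 and 66.9 CPM with PBS and 30.2, 6.33 and 9.59 CPM with IVIg in WT. The values of the groups overlapped, and the highest of each group belonged to the pair of libraries with the most alike profiles. The log2 fold change was -1.16 ± 0.55 (unadjusted p = 0.0484, adjusted p = 1 in edgeR), but it was -0.22 when WT PBS replicate 3 was left out and -2.11 when WT IVIg replicate 1 was. The Gbp7 means of the Dectin-1 knockout were 21.2 ± 1.45 and 22.1 ± 7.90 CPM, and those of the FcgRIIb knockout 19.8 ± 15.3 and 17.6 ± 7.73 CPM (PBS and IVIg, SD, n = 3). Of the exon bases of Gbp7, 637 (11.3%) are shared with the gene model Gm43802, and the counting let a read count for each gene it overlaps.

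Gbp5, which promotes NLRP3 inflammasome assembly, and Gbp9 did not pass the test with IVIg in any genotype. In the Dectin-1 knockout Gbp5 stood at 22.0, 28.1 and 28.4 CPM with PBS and 37.4, 30.6 and 28.6 with IVIg, without overlap but by a narrow margin, and its log2 fold change was 0.29 ± 0.39. In WT Gbp5 stood at 32.7 ± 14.5 and 25.6 ± 7.31 CPM (SD, n = 3). In the FcgRIIb knockout the shallow library held Gbp5 at 115.8 CPM, 4.07 times the median of the deep libraries, and the other 2 PBS libraries at 29.7 and 16.3 CPM, beside 26.9 to 33.0 CPM with IVIg. Gbp9 stood at 65.4 ± 15.3 and 70.3 ± 12.8 CPM in WT, 54.9 ± 6.36 and 58.8 ± 7.86 CPM in the Dectin-1 knockout and 30.7 ± 24.6 and 58.3 ± 17.4 CPM in the FcgRIIb knockout (PBS and IVIg, SD, n = 3). The low FcgRIIb PBS mean contains the shallow library, where Gbp9 had 3 counts (4.24 CPM), and the other 2 libraries stood at 52.8 and 34.9 CPM. The log2 fold change of Gbp9 was 0.55 ± 0.31 in that knockout (unadjusted p = 0.0934, adjusted p = 1 in edgeR).

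Of the regulators, Irgm1 had similar means with PBS and IVIg. It stood at 144.7 ± 11.4 and 139.2 ± 12.5 CPM in WT, 165.1 ± 8.77 and 152.0 ± 24.4 in the Dectin-1 knockout and 158.4 ± 35.1 and 156.7 ± 22.2 in the FcgRIIb knockout (PBS and IVIg, SD, n = 3). Averaged over genotypes its log2 fold change was -0.08 (95% interval -0.31 to 0.15, or a ratio of 0.806 to 1.11), and that of Irgm2 was -0.03 (-0.25 to 0.18, or a ratio of 0.842 to 1.13). Igtp and Irgm2 had lower values with IVIg in the Dectin-1 knockout. Igtp stood at 63.1, 62.4 and 64.8 CPM with PBS and 59.6, 49.3 and 42.5 with IVIg, a log2 fold change of -0.34 ± 0.23 (unadjusted p = 0.151 in edgeR). Irgm2 stood at 110.1, 103.0 and 102.9 CPM with PBS and 89.8, 99.9 and 82.9 with IVIg, a log2 fold change of -0.21 ± 0.17. In neither case did the groups overlap, and together with Gbp5 and Iigp1, which were higher with IVIg, these made 4 of 10 members without overlap in the Dectin-1 knockout, beside 8.8% of all tested genes. In the same libraries all 8 neutrophil markers were higher with IVIg (median log2 fold change 4.43, 7 at an unadjusted p under 0.05, 0 called), with sums of 12.9 to 42.9 CPM in PBS and 50.2 to 1258 CPM in IVIg, and their part in these members was not tested. Igtp and Irgm2 share 162 exon bases, 8.01% of Igtp and 4.39% of Irgm2, so their counts are not independent.

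The effectors Iigp1 and Ifi47 were at opposite ends of the abundance range. Iigp1 stood at 0.939, 0.531 and 1.45 CPM with PBS in the Dectin-1 knockout and at 2.04, 1.86 and 1.59 with IVIg, without overlap, which are 20 to 39 and 33 to 80 counts per library. The log2 fold change was 0.93 ± 0.73 and its 95% interval, -0.61 to 2.47, spans 0. In WT the values were 1.15, 1.05 and 1.33 CPM with PBS and 0.422, 2.01 and 0.577 with IVIg. In the FcgRIIb knockout they were 1.02, 0 and 0.309 with PBS and 0, 1.14 and 3.40 with IVIg. Ifi47 stood at 149.9 ± 9.39 and 126.8 ± 32.5 CPM in WT, 176.9 ± 7.34 and 169.3 ± 71.6 in the Dectin-1 knockout and 257.9 ± 126.4 and 186.2 ± 41.6 in the FcgRIIb knockout (PBS and IVIg, SD, n = 3). Its highest value, 401.0 CPM, belonged to the shallow library. Over the average of the genotypes the members' log2 fold changes with IVIg ranged from -0.22 ± 0.17 for Ifi47 to 0.70 ± 0.46 for Iigp1.

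**Figure D3:**
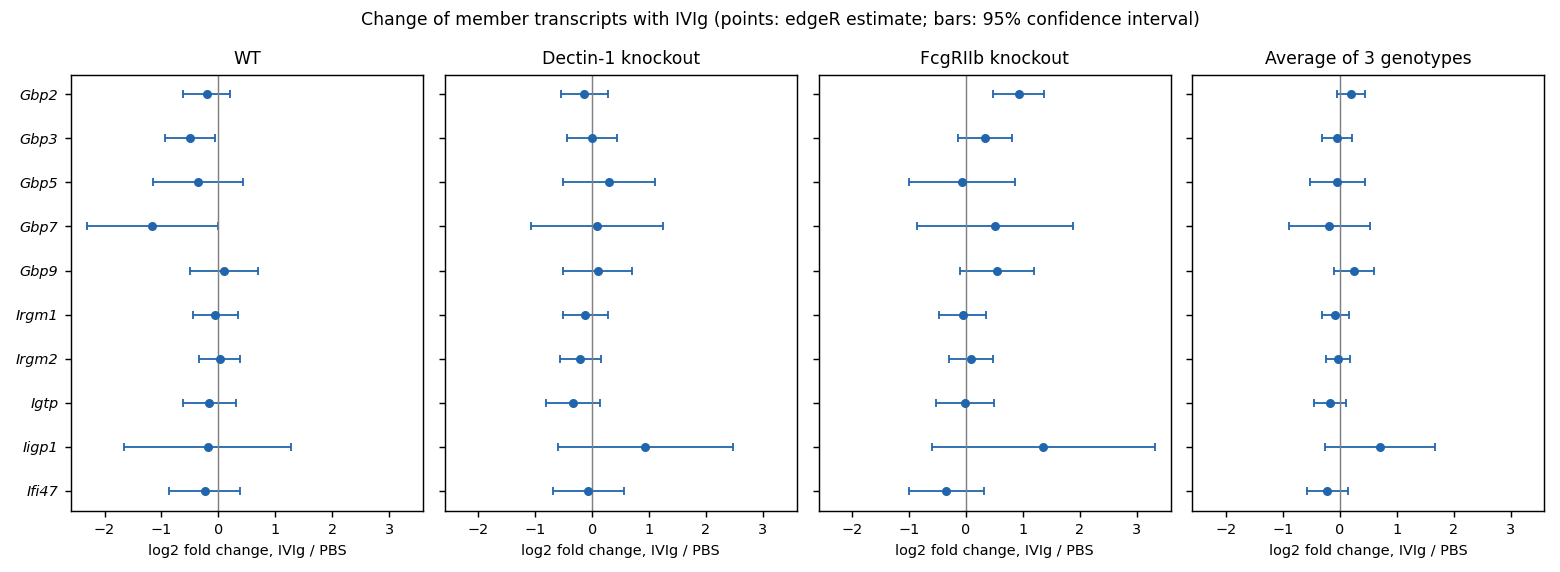
Log2 fold change of IVIg against PBS (x axis) for the 10 members (y axis) in WT, the Dectin-1 knockout, the FcgRIIb knockout and the average of the 3 genotypes; points are edgeR estimates and bars 95% confidence intervals. The interval of Gbp2 in the FcgRIIb knockout runs from 0.47 to 1.38, and in the average of the genotypes all 10 intervals contain 0.

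Between genotypes, Gbp2 and Gbp3 had the lowest IVIg values in WT. Both comparisons use the same 3 WT IVIg libraries, and 0 of 10 members were called in either by edgeR, DESeq2 or limma voom, beside 0.0528% of all tested genes for the Dectin-1 knockout and 0.0117% for the FcgRIIb knockout. At an unadjusted p under 0.05 edgeR counted 2 of 10 members, Gbp2 and Gbp3, in each comparison, beside 3.45% and 5.44% of all tested genes. For Gbp3 the Dectin-1 knockout stood at 125.0, 117.5 and 119.7 CPM, all above the WT range of 63.6 to 79.5, a log2 difference of 0.77 ± 0.21 (95% interval 0.33 to 1.22; unadjusted p = 0.00172, adjusted p = 0.524 in edgeR). For Gbp2 the FcgRIIb knockout stood at 117.3 to 133.1 CPM, all above the WT range of 65.8 to 91.5, a log2 difference of 0.75 ± 0.20 (0.33 to 1.16; unadjusted p = 0.00132, adjusted p = 0.652 in edgeR). Gbp3 was 0.54 ± 0.21 higher in the FcgRIIb knockout (93.6 to 117.4 CPM, no overlap), and Gbp2 was 0.45 ± 0.20 higher in the Dectin-1 knockout (90.9 to 125.1 CPM, overlapping WT by 1 library).

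Non-overlapping members were thus 1 of 10 (Gbp3) for the Dectin-1 knockout, beside 6.22% of all tested genes, and 2 of 10 (Gbp2 and Gbp3) for the FcgRIIb knockout, beside 10.3%. The median log2 difference of the members was 0.37 for the Dectin-1 knockout and 0.28 for the FcgRIIb knockout, beside -0.02 for all tested genes in each. The first of these medians was 0.12 without Dectin-1 knockout IVIg replicate 1. Markers of other cells also differed in these libraries. The 8 neutrophil markers were all higher in the Dectin-1 knockout (median log2 difference 4.43, 0 called), with summed levels of 50.2 to 1258 CPM against 4.08 to 45.7 in WT. Of the 7 B cell markers 6 were higher there (median 1.65, sums of 295 to 465 against 308 to 584 CPM, 0 called). The 12 markers of non-classical monocytes were all lower (median -0.39, sums of 6013 to 8016 against 7825 to 9891 CPM, 0 called). The NK cell markers summed to 13.1 to 14.0 CPM there against 21.4 to 43.7 in WT, although 5 of the 7 had higher estimates. Only 1 of them, the activating receptor gene Klrk1, was called, and it was lower (log2 difference -1.84 ± 0.33, adjusted p = 0.0430 in edgeR). Over the 18 libraries Klrk1 had a median of 18.9 CPM, beside 22.7 CPM for the sum of the 7. The NK cell sums thus depend largely on this gene. In the FcgRIIb knockout all 10 T cell markers (median 1.45; sums of 37.7 to 67.8 against 15.3 to 53.0 CPM) and all 7 NK cell markers (median 1.82; sums of 34.0 to 55.2 against 21.4 to 43.7 CPM) were higher, with 0 called. Neutrophil markers were higher in that knockout for 8 of 8 (median 1.99, sums of 17.2 to 123.9 against 4.08 to 45.7 CPM). Erythroid markers were higher for 5 of 5 (median 1.53, sums of 15.8 to 47.8 against 4.52 to 18.6 CPM). Of the 12 non-classical monocyte markers 9 were lower (median -0.36, sums of 6023 to 7135 against 7825 to 9891 CPM). B cell markers were higher for 6 of 7 (median 0.35, sums of 521 to 1488 against 308 to 584 CPM). Plasma cell markers were higher for 3 of 5 (median 0.03, sums of 605 to 1062 against 409 to 682 CPM). In these lists too 0 were called. The part of all these markers in the differences of Gbp2 and Gbp3 was not tested.

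With PBS, the FcgRIIb knockout had lower Gbp2 values than WT, the reverse of the order with IVIg. No member was called in either PBS comparison by edgeR, DESeq2 or limma voom, beside 0.0411% of all tested genes for the Dectin-1 knockout and 0% for the FcgRIIb knockout. At an unadjusted p under 0.05 edgeR counted 0 and 3 of 10 members, beside 4.05% and 9.65% of all tested genes. Gbp2 ranged over 64.2 to 70.6 CPM in the FcgRIIb knockout and over 72.5 to 96.2 CPM in WT, a narrow separation. Its log2 difference was -0.38 ± 0.21 (unadjusted p = 0.0929, adjusted p = 0.549 in edgeR). The confidence interval of this difference, -0.83 to 0.07, contained 0. With the length trend as an offset the Gbp2 difference shifted to -0.66. The 3 members at that threshold were Gbp7 (-1.45 ± 0.66), Gbp9 (-0.71 ± 0.31) and Ifi47 (0.66 ± 0.31), with edgeR adjusted p of 0.516, 0.516 and 0.517. The Gbp7 difference was -0.51 without WT PBS replicate 3 and that of Ifi47 was 0.31 without the shallow library. Groups did not overlap for Gbp2, Iigp1 and Ifi47, 3 of 10, beside 11.6% of all tested genes, though a count of 0 for Iigp1 in the shallow library allows up to 4.24 CPM, above the WT range of 1.05 to 1.33. B cell markers summed to 707 to 1379 CPM in these knockout libraries against 227 to 302 in WT (6 of 7 higher, median log2 difference 0.75), and plasma cell markers to 552 to 1392 against 476 to 513 CPM (4 of 5 higher, median 0.61), with 0 called. The highest of these knockout sums, 1379 and 1392 CPM, were those of the shallow library. The part of these markers in the differences of the members was not tested.

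In the Dectin-1 knockout with PBS, Irgm1 (155.7 to 173.1 CPM) and Ifi47 (168.4 to 181.6 CPM) were above their WT ranges of 131.6 to 151.3 and 139.5 to 157.7 CPM. Their log2 differences were 0.19 and 0.24. With the length trend as an offset that of Irgm1 was 0.244 and that of Ifi47 fell to 0.0855. These 2 of 10 members without overlap compare with 16.3% of all tested genes. Some cell type markers also differed in level, with 0 called. Those of non-classical monocytes were higher for 10 of 12 (median 0.59; sums of 6917 to 7995 against 5266 to 7010 CPM in WT). Erythroid markers were higher for 5 of 5 (median 1.17; 13.1 to 15.7 against 4.62 to 8.91 CPM). T cell markers were lower for 9 of 10 (median -1.07; 11.3 to 21.2 against 23.9 to 38.6 CPM). NK cell markers were lower for 4 of 7 (median -0.03; 8.41 to 14.9 against 20.5 to 24.7 CPM). The part of all these markers in Irgm1 and Ifi47 was not tested. The median log2 difference of the members was 0.11 for the Dectin-1 knockout and -0.24 for the FcgRIIb knockout, beside -0.02 and -0.05 for all tested genes. The first median was -0.0188 without WT PBS replicate 1. For the interaction of IVIg with the Dectin-1 knockout 0 members were called, 0 had an unadjusted p under 0.05, beside 3.75% of all tested genes, and the median was 0.12 (-0.0487 without Dectin-1 knockout IVIg replicate 1). For that with the FcgRIIb knockout 0 were called, 2 (Gbp2 and Gbp3) had an unadjusted p under 0.05, beside 2.86% of all tested genes, and the median was 0.37 (0.16 without WT PBS replicate 3, 0.63 with limma voom). Of all tested genes edgeR called 0% for each interaction, and DESeq2 and limma voom called 0 members.

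Across libraries the members split into groups that varied together. Over the 17 deep libraries Irgm1 and Ifi47 had a Spearman correlation of 0.74, Igtp and Ifi47 of 0.71 and Igtp and Irgm1 of 0.71, all of chromosome 11. On chromosome 3 Gbp5 and Gbp7 correlated at 0.63 and Gbp2 and Gbp3 at 0.57. Ifi47 and Gbp9 ran in opposite directions (-0.58). Of the 45 pairs 30 were positive, with a median of 0.19. These values mix group and library differences, and the points share depth and the trend of each library on transcript length, which ran from -0.65 (Spearman, FcgRIIb knockout PBS replicate 3) to 0.58 (WT IVIg replicate 1).

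**Figure D4:**
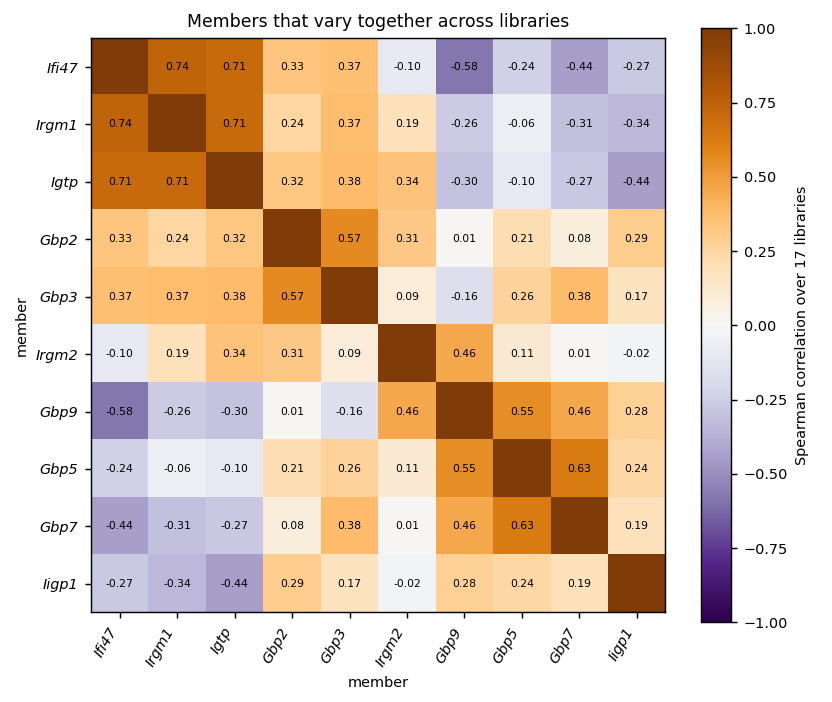
Spearman correlation of log2 CPM between members over the 17 deep libraries (colour and printed value; both axes list the members). Ifi47, Irgm1 and Igtp form a block of 0.71 to 0.74, Gbp2 and Gbp3 reach 0.57 and Gbp5 and Gbp7 0.63, while Gbp9 and Ifi47 stand at -0.58.

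Among the genes whose levels were most like the mean standardised profile of the 10 members over the 18 libraries, of 12825 compared, were Ldah (Spearman 0.75), a lipid droplet hydrolase, Plcd1 (0.72), a phospholipase C, Trim30d (0.66) and Ifi209 (0.65), of the interferon-inducible PYHIN family. Plcd1 averaged only 1.30 CPM, below the 4.24 CPM that 3 counts make in the shallow library. Of the 30 type I interferon-stimulated genes listed, 29 correlated positively with the mean profile of the members, at a median of 0.33, beside 50.5% of all genes compared and a median of 0.00. Of 20 genes of the interferon gamma pathway 16 were positive (median 0.11), and of 29 partners of these GTPases in autophagy and cell death 18 were (median 0.04). The WT libraries show the spread of the profile within a group. In WT with PBS the mean profile stood at -0.66, 0.11 and 0.74 standard deviations, beside -0.64, -0.47 and -0.26 with IVIg.

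**Figure D5:**
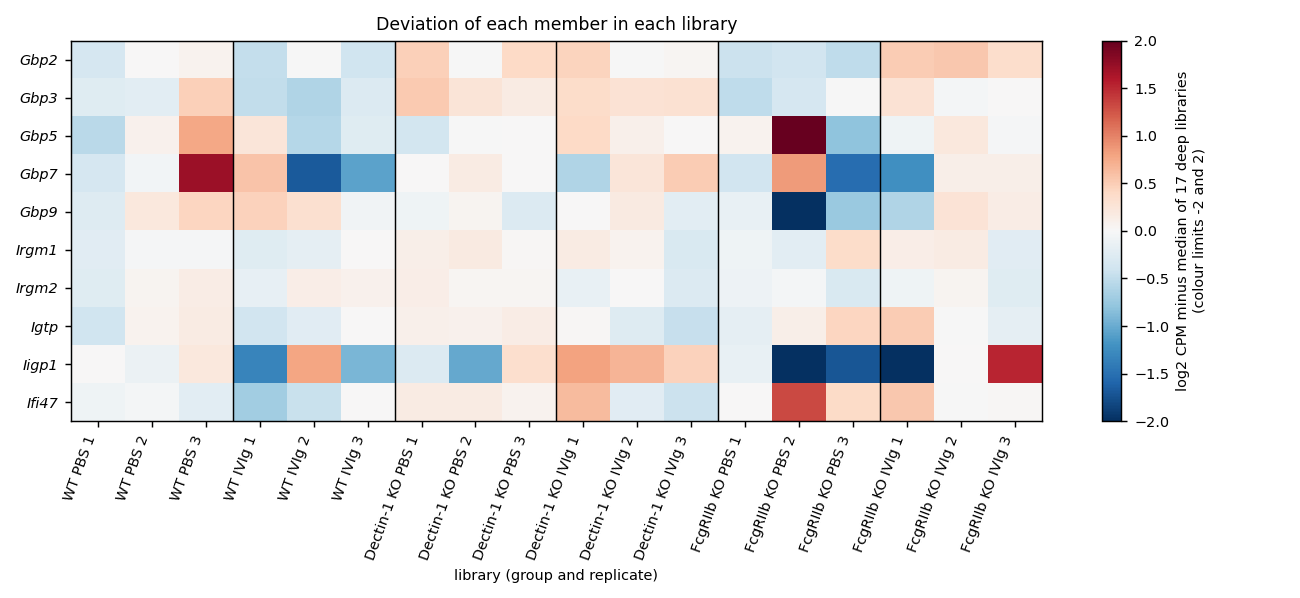
Log2 CPM of each member (rows) in each of the 18 libraries (columns, by group and replicate) minus the median of the 17 deep libraries, with colour limits at -2 and 2. Gbp7 is high in WT PBS replicate 3, Gbp5 and Ifi47 are high and Gbp9 and Iigp1 low in the shallow FcgRIIb knockout PBS replicate 2, and the row of Irgm2 is nearly even.

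Upstream of the members, transcripts of the receptor subunits and signalling factors were abundant in these monocytes, while that of the ligand was nearly absent. Ligand made by other cells was not measured. Ifng, which encodes interferon gamma, had 0 counts in 13 of 18 libraries and at most 19 counts (0.707 CPM) in the others. Median levels were 1077 CPM for the receptor subunit Ifngr1 and 214 for Ifngr2, 126 for the kinase Jak2 and 163 for Irf1. Of the 25 listed genes of this pathway 23 were tested, and 0 were called in any of the 10 comparisons by edgeR. The smallest unadjusted p with IVIg in the FcgRIIb knockout was that of Jak2 (log2 fold change 0.58 ± 0.24, unadjusted p = 0.0273, adjusted p = 1 in edgeR), followed by the receptor subunit Il12rb1 (2.13 ± 1.26). Irf1 differed by 0.34 ± 0.23 in that comparison, in which Gbp2 differed by 0.92. In the average of the genotypes the smallest were Cd74 (0.34 ± 0.16, unadjusted p = 0.0453), the invariant chain of class II molecules, and the chemokine Cxcl9 (0.68 ± 0.32, unadjusted p = 0.0468), each with an adjusted p of 1 in edgeR.

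The other family genes, the type I interferon-stimulated genes and the partners also had 0 calls by edgeR in each of the 10 comparisons. Of the other 18 family genes looked for 12 were tested, and the 3 most abundant were Gm12250 (36.4 FPKM), Gm5431 (17.1) and Tgtp2 (5.76 FPKM), all of the immunity-related GTPases. Gm12250 differed with IVIg by -0.16 ± 0.15 and Tgtp2 by 0.03 ± 0.17 in the average of the genotypes. Of the type I interferon-stimulated genes all 30 were tested. With IVIg 26 of them had lower values in WT (median -0.27), beside 8292 of the 17040 tested genes. In the FcgRIIb knockout 19 of 30 had higher values (median 0.11), beside 8713 of the 17040. At an unadjusted p under 0.05 edgeR counted 2 and 0 of the 30, beside 2.52% and 3.19% of all tested genes. Those with the smallest unadjusted p in WT were Siglec1 (-1.07 ± 0.40), a sialic acid-binding receptor of macrophages, and Oas3 (-0.55 ± 0.23), a sensor of double-stranded RNA, and in the FcgRIIb knockout Siglec1 (0.77 ± 0.45) and Ifit2 (0.37 ± 0.26), with an edgeR adjusted p of 1 for each. The 29 partners had medians of 0.08 in WT, -0.03 in the Dectin-1 knockout and -0.10 in the FcgRIIb knockout, where Aim2, a sensor of cytosolic DNA, had the smallest unadjusted p (0.39 ± 0.24), followed by the ubiquitin ligase Traf6 (0.32 ± 0.23).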

How the data were processed

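Per the labels' protocols, a kit for stranded mRNA libraries was used on RNA of the sorted monocytes. Raw counts of read pairs per gene were deposited by the authors, made with featureCounts 2.0.2 on Ensembl 104 genes, per the file headers, and on GRCm39 after STAR alignment, per the submitters' processing notes. The command in the header sets no strand option and lets a read count for each gene it overlaps. Of the deposited columns, 18 match no sample here and were not used.

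The deposited counts were filtered with filterByExpr, which left 17040 genes, and scaled by TMM. The main test was edgeR's quasi-likelihood test (version 4.0.16, in R 4.3.3), fitted once to all 18 libraries for 10 comparisons, with Benjamini-Hochberg adjustment over all tested genes. Log2 CPM used a prior count of 2. Alternatives were DESeq2 1.42.0, limma voom 3.58.1 with quality weights, RLE factors, no filter or a stricter one, the legacy fit, own groups only, a length trend offset and each library left out. The scripts were tested on simulated data. The titles carry codes that some libraries share, so only the series' design text says that the mice are independent, and replicate numbers follow accession order. The lowest chi-square per degree of freedom between libraries was 32.4, so none were copies. Members, lists and tests were chosen with earlier results of these data known. Named genes are all members, the 3 most abundant other family genes and, per list, genes called or those with the smallest p. Results for 1 gene outside the members are not reported here.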

Additional observations from a re-analysis of the deposited data

How the results depend on the processing

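The number of members called was 0 in all 10 comparisons under each alternative run. Among the single member differences followed through the alternatives, the lowest adjusted p was 0.0694. It belonged to the log2 fold change of Gbp2 with IVIg in the FcgRIIb knockout. That log2 fold change ran from 0.88 to 0.98 over the alternatives. Among the single members followed here, reversals of sign occurred in the comparison of IVIg with PBS averaged over 3 genotypes, for values near 0. Gbp3 (-0.05) became 0.0366 without the WT pair of most alike profiles and 0.0410 also without the shallow library, Gbp5 (-0.05) became 0.0766 with limma voom and 0.140 without the pair and the shallow library, and Irgm2 (-0.03) became 0.00924 and 0.0296 on the same removals of libraries. These removals were chosen after seeing the data, and fewer samples enter them. Leaving out each library in turn gave -0.11 to 0.0398 for Gbp3, -0.24 to 0.0885 for Gbp5 and -0.50 to 0.13 for Gbp7 in that comparison. Medians of the members also changed sign. That of the FcgRIIb knockout with IVIg was -0.000654 with DESeq2, and that of the Dectin-1 knockout 0.000268 to 0.00672 without its PBS replicate 1, IVIg replicate 2 or IVIg replicate 3. The average over genotypes had 0.0642 without WT PBS replicate 3, 0.00443 without the pair and 0.0353 without the pair and the shallow library. The Dectin-1 knockout against WT in PBS had -0.0188 without WT PBS replicate 1 and -0.0250 with the length offset, and its interaction -0.0487 without its IVIg replicate 1. The cause was not tested. No paired analysis was possible because the labels give no replicate numbers. Depth limits Iigp1 in each library and all low genes in FcgRIIb knockout PBS replicate 2.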

Other observations

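A pair of immunity-related GTPase gene models outside the 10 members, named after their values were seen, separated 2 WT libraries from the rest. 9930111J21Rik1 stood at 69.1 CPM in WT PBS replicate 3 and 79.7 CPM in WT IVIg replicate 1, against at most 16.9 CPM in the other 16 libraries. 9930111J21Rik2 stood at 153.8 and 199.5 CPM in the same libraries, against at most 49.8 CPM elsewhere. The same 2 libraries had the most alike profiles of all pairs, and Gbp7 and Gbp5 had the highest values of their groups there. In these near-identical gene models reads may be split between copies, so the level of each is uncertain. Tgtp1, a GTPase with a close copy in Tgtp2, differed by 1.61 ± 0.67 on the log2 scale with IVIg in the FcgRIIb knockout (unadjusted p = 0.0276, adjusted p = 1 in edgeR), with 3 IVIg libraries at 1.68 to 2.64 CPM and 3 PBS libraries at 0 to 1.19 CPM. The 0 is that of the shallow library, where it allows up to 4.24 CPM, and Tgtp1 was also named after its value was seen.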
